A study of Rattus norvegicus with 6 samples.

Results

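The solute carriers described here move sodium, protons, bicarbonate, chloride, calcium, zinc and other metals across membranes. They are the members of the families SLC4, SLC8, SLC9, SLC12, SLC24, SLC26, SLC30 and SLC39, picked out by gene symbol, without Slc8a1, Slc12a2 and Slc26a4. Of 71 genes whose symbol belonged to these families, 68 remained, out of 32883 genes in the count table. The filter on low counts left 55 of them for testing, among 14352 genes tested in all. RNA-seq was performed on the vestibular epithelium of adult male Long-Evans rats, received at 8 to 9 weeks of age. For 4 weeks, 3 rats (IDPN-4wk) were given 20 mM 3,3'-iminodipropionitrile (IDPN), a nitrile toxic to inner ear hair cells (HCs), in their water, and the 3 Control rats had plain water. Libraries are numbered 1 to 3 within a group, and values with ± are the mean ± SD of its 3 rats. Each library came from 1 rat, with its 2 utricles and 6 cristae pooled, so the cell types of these organs were read together. All 6 libraries carry the same batch label. The animal codes in the sample titles differ in prefix between the groups, and what the prefix marks is not given in the sources used here.

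Ion carriers of the inner ear keep up the potassium-rich endolymph and the pH and volume of the cells around it. Bicarbonate carriers (SLC4, SLC26) and Na+/H+ exchangers (SLC9) move acid and base, cation-chloride cotransporters (SLC12) set cell chloride and volume, and Na+/Ca2+ exchangers (SLC8, SLC24) extrude calcium at the cost of the sodium gradient. Zinc leaves the cytosol through ZnT proteins (SLC30) and enters it through ZIP proteins (SLC39), and several genes of zinc handling are induced by the zinc-sensing factor MTF1 through metal response elements in their promoters.

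Most of these carriers differed by less than 1.5-fold between the groups, and a few changed strongly. Slc9a9, Slc24a3, Slc12a5, Slc8a3 and Slc4a4 were downregulated to between 30.2% and 49.8% of their Control mean, and Slc26a10 and Slc30a2 were upregulated. A gene was called downregulated or upregulated when the Benjamini-Hochberg adjusted p (Padj) of the quasi-likelihood test of edgeR, adjusted over all genes tested, was under 0.05 and the fold change over 1.5. By this rule 7 of 55 carriers (12.7%) were called, against 9.71% of all genes tested. Downregulated carriers numbered 5 (9.09%, against 6.62% of all genes) and upregulated carriers 2 (3.64%, against 3.09%). These shares were near those of all genes, so the number of calls does not set the carriers apart. With glmTreat of edgeR, a stricter test against the fold change of 1.5 itself, Slc9a9 passed, and so did Slc30a2, which reached the test only through its IDPN-4wk libraries, while the other 5 did not. Levels in CPM, read counts scaled to a common library size after TMM, did not overlap between the groups in 23 of 55 carriers (41.8%, against 37.8% of all genes). The log2-Fold change was below 0 in 29 carriers and above 0 in 26, and it lay within 1.5-fold in 42. Its median was -0.008 over the carriers and 0.02 over all genes tested. Depth was from 13358678 to 18561991 counts per library, and the 68 carriers together took from 0.280% to 0.302% of them.

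**Figure D1:**
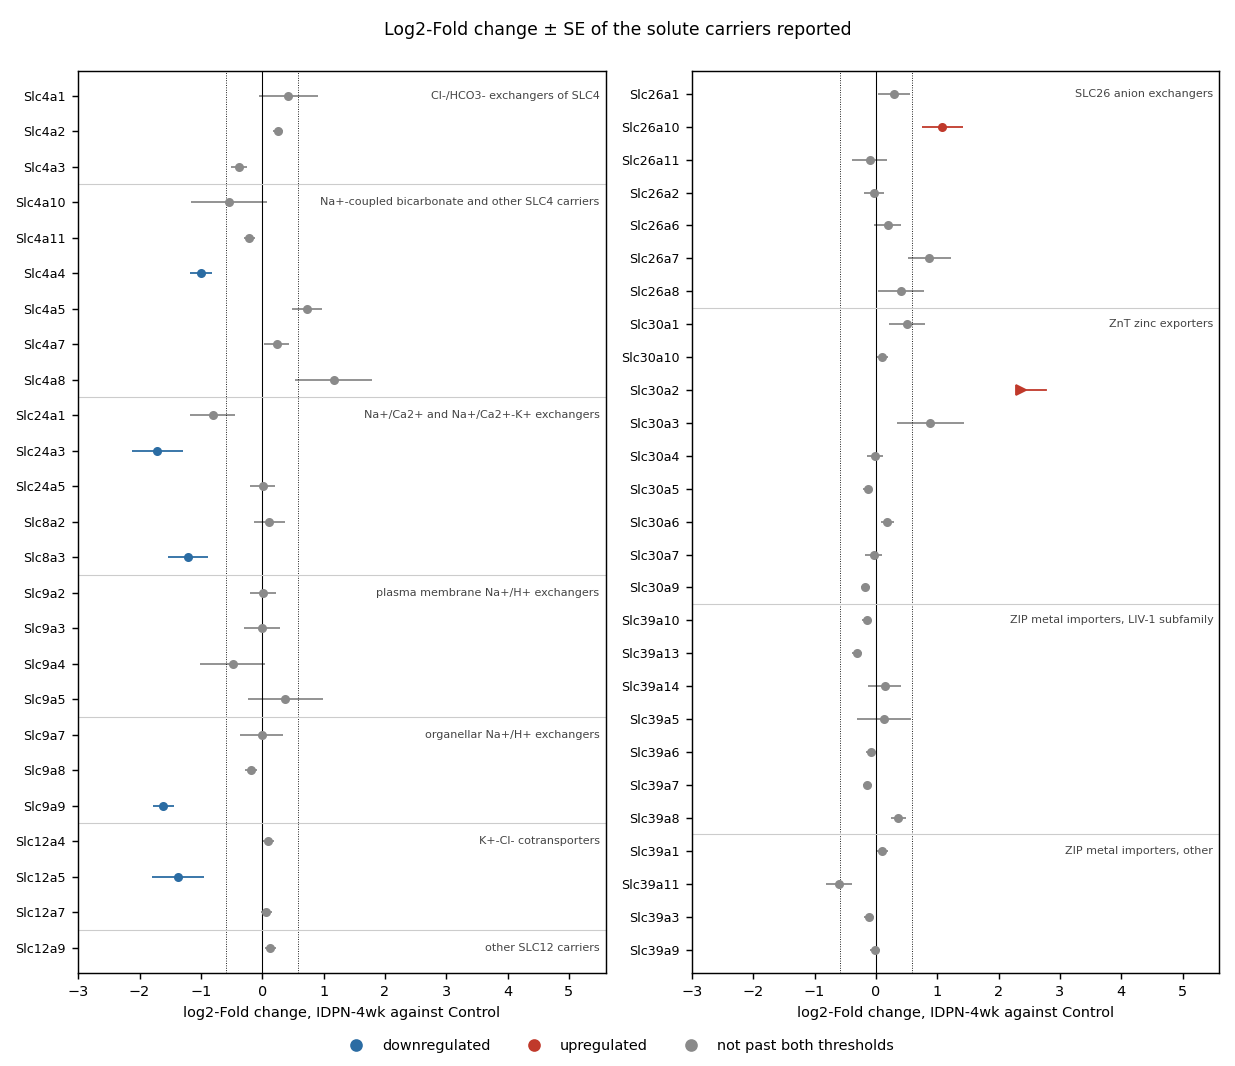
Each point is the log2-Fold change of a tested carrier reported here, in IDPN-4wk against Control rats (n = 3 each), with its SE, grouped by role. Dotted lines mark a fold change of 1.5. The arrow of Slc30a2 stands at its observed IDPN-4wk mean over a floor of 3 counts, since its Control libraries held 0 counts. Most points lie between the dotted lines, and 5 blue points lie to the left of them and 2 red points to the right.

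Markers of several cell types of this tissue differed between the groups as well. HC markers fell in 8 of 12 genes, with a summed level of 2265 to 2475 CPM in Control against 1057 to 1570 CPM in IDPN-4wk libraries, and the defining markers Myo7a and Otof were present in all 6 libraries. Supporting cell markers fell in 5 of 10 genes (11857 to 13146 against 6202 to 7765 CPM) and dark cell markers in 3 of 7 (1416 to 1706 against 378 to 545 CPM). Neuron markers fell in 2 of 7 genes and rose in 2 (109 to 114 against 68.0 to 72.9 CPM). Schwann cell markers fell in 1 of 8 genes, and endothelium markers in 1 of 5. None of 6 melanocyte markers was called with edgeR or DESeq2, though 4 had an unadjusted p under 0.05. Stroma and macrophage lists each had 1 gene lower and 1 higher, of 7 and 9 tested. Red blood cell markers rose in 2 of 5 genes with edgeR and in 0 with DESeq2. The skeletal muscle gene Myh4 rose, from 6.44 to 10.7 CPM in Control to 40.5 to 71.9 CPM in IDPN-4wk libraries, while the muscle creatine kinase gene Ckm was at 0 in all 6 libraries. From such bulk samples alone, fewer cells of a type and less RNA per cell cannot be told apart. For HCs, the paper counted cells in other rats of this treatment and reported a limited loss. It also reported less label per HC for several HC proteins, though not for MYO7A. The part of the marker shifts in the carrier levels was not tested.

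The organellar Na+/H+ exchangers held the carrier with the smallest Padj. Slc9a9 (ENSRNOG00000008554) encodes NHE9, which exchanges cations for protons in recycling endosomes. Its level was 34.5, 36.3 and 33.0 CPM in the Control libraries and 12.4, 8.25 and 13.5 CPM in the IDPN-4wk libraries. The groups were far apart, and the highest IDPN-4wk library was below the lowest Control library. The log2-Fold change was -1.61 (SE 0.17, edgeR Padj 1.24e-04), and it stayed between -1.77 and -1.42 when any 1 library was left out. Its relatives did not pass the thresholds. Slc9a8, the Golgi exchanger NHE8, and Slc9a7 had log2-Fold changes of -0.18 and -0.008. The summed level of the 4 organellar exchangers went from 183 ± 5.18 to 145 ± 3.85 CPM (mean ± SD of 3 rats).

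None of the 5 plasma membrane Na+/H+ exchangers passed the thresholds with edgeR or DESeq2, and 0 had an unadjusted p under 0.05. Slc9a3, the epithelial exchanger NHE3, varied more between rats than between groups, with 18.9, 10.9 and 10.8 CPM against 9.20, 11.6 and 19.8 CPM. Slc9a2, Slc9a4 and Slc9a5 had log2-Fold changes from -0.48 to 0.37.

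Among the SLC4 carriers the electrogenic Na+-bicarbonate cotransporter fell. Slc4a4 (ENSRNOG00000003134), which encodes NBCe1 and brings bicarbonate into or out of epithelial and glial cells, had 19.2, 14.9 and 13.9 CPM in Control against 6.76, 7.94 and 9.21 CPM in IDPN-4wk libraries. All IDPN-4wk libraries were below all Control libraries, and the IDPN-4wk mean was 49.8% of the Control mean (log2-Fold change -1.004, SE 0.18, edgeR Padj 0.00313). With 1 library left out it stayed between -1.13 and -0.85.

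The other Na+-coupled and related SLC4 carriers did not pass the thresholds. Slc4a11, whose product conducts protons and whose mutation causes corneal dystrophy with hearing loss in humans, drew 32.4% of all carrier counts, without correction for gene length. It had 1012, 1057 and 974 CPM in Control against 867, 771 and 995 CPM in IDPN-4wk libraries. IDPN-4wk 3 lay within the Control range and the other two libraries below it (log2-Fold change -0.21, SE 0.09, edgeR Padj 0.144). Slc4a7, the electroneutral cotransporter NBCn1, which mice need for hearing and vision, was at 7.65 ± 1.80 and 9.01 ± 0.78 CPM (log2-Fold change 0.24, edgeR Padj 0.464). Slc4a5 was higher in all IDPN-4wk libraries, with 5.18, 7.02 and 9.08 CPM against 4.58, 4.05 and 4.25 CPM, and did not pass (log2-Fold change 0.72, SE 0.24, edgeR Padj 0.0589). Without IDPN-4wk 1 it did pass (log2-Fold change 0.89, edgeR Padj 0.0368), and over the other 5 such fits the Padj was 0.0991 or higher. Slc4a8 and Slc4a10, which are Na+-driven bicarbonate carriers of neurons, reached at most 40 and 25 counts in a library and gave 1.16 and -0.54, with SE 0.62 for both. Slc4a9 had 0 counts in every library.

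The Cl-/HCO3- exchangers of SLC4 went in both directions by small amounts. Slc4a2, the widely expressed exchanger AE2, had an edgeR Padj of 0.0444 with a log2-Fold change of 0.26, under the fold change threshold. Slc4a3, the exchanger AE3 of excitable tissues, had 50.4, 48.6 and 48.6 CPM in Control against 31.8, 34.9 and 46.9 CPM in IDPN-4wk libraries (log2-Fold change -0.38, SE 0.13, edgeR Padj 0.0665). Its libraries did not overlap, though IDPN-4wk 3 nearly reached the Control values. Slc4a1, the red blood cell exchanger, was below 5 CPM throughout (log2-Fold change 0.43, edgeR Padj 0.578), while 2 of 5 red blood cell markers rose with edgeR and 0 with DESeq2.

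The calcium exchangers that were called, Slc24a3 and Slc8a3, both fell, and both were rare transcripts here. Slc24a3 (ENSRNOG00000060687) encodes the K+-dependent exchanger NCKX3. It had 91, 62 and 53 counts in Control and 8, 27 and 35 counts in IDPN-4wk libraries, which is 5.88, 4.33 and 3.75 CPM against 0.58, 1.39 and 2.25 CPM. All IDPN-4wk libraries were lower, and the log2-Fold change was -1.71 (SE 0.41, edgeR Padj 0.0153). It did not pass the edgeR test without Control 1 (Padj 0.0574) or IDPN-4wk 2 (Padj 0.0517), within Padj from 0.00568 to 0.0574 over the 6 such fits. Slc8a3 (ENSRNOG00000029871) encodes NCX3, a Na+/Ca2+ exchanger of neurons and muscle. Its Control values of 3.62, 3.70 and 3.61 CPM were nearly equal, and its IDPN-4wk values were 1.01, 1.55 and 2.12 CPM (log2-Fold change -1.21, SE 0.32, edgeR Padj 0.0242). IDPN-4wk 3 was the closest to Control for both genes. The call of Slc8a3 was kept without that library (edgeR Padj 0.0145) and lost without each of the other 5, with Padj of 0.0601, 0.0678 and 0.0651 without Control 1, 2 and 3 and 0.0774 and 0.0703 without IDPN-4wk 1 and 2.

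The other calcium exchangers tested did not pass the thresholds. Slc8a2, the NCX2 exchanger of nervous tissue, was at 7.05 ± 1.89 and 7.64 ± 2.02 CPM (mean ± SD of 3 rats; edgeR Padj 0.792). Slc24a5, the exchanger NCKX5 of melanosomes, was at 6.97 ± 0.83 and 6.98 ± 0.92 CPM (log2-Fold change 0.004, SE 0.20, edgeR Padj 0.991). While 0 of 6 melanocyte markers were called, their summed level was lower, with 694 to 822 CPM in Control against 593 to 645 CPM in IDPN-4wk libraries. Slc24a1, the exchanger NCKX1 of rod photoreceptors, overlapped between groups (log2-Fold change -0.81, SE 0.36, edgeR Padj 0.150). Slc24a2 and Slc24a4 were not tested. Slc24a2 had 8, 9 and 10 counts in Control and 1, 13 and 2 counts in IDPN-4wk libraries. Slc24a4 had 2, 32 and 1 counts against 2, 7 and 17 counts, so most of its Control counts came from Control 2.

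Of the K+-Cl- cotransporters only the neuronal one was called. Slc12a5 (ENSRNOG00000018111) encodes KCC2, which keeps chloride low in mature neurons. It had 2.13, 2.87 and 2.90 CPM in Control against 1.01, 0.52 and 1.55 CPM in IDPN-4wk libraries, from 10 to 41 counts per library. The groups did not overlap (log2-Fold change -1.38, SE 0.42, edgeR Padj 0.0422). The call was kept without IDPN-4wk 3 (edgeR Padj 0.0192) and lost without each of the others, with Padj of 0.0622, 0.118 and 0.122 without Control 1, 2 and 3 and 0.109 and 0.122 without IDPN-4wk 1 and 2. Beside it, the synaptic genes Snap25 and Syt1 fell, with log2-Fold changes of -1.44 and -1.79, and the rare transcripts Nefh, a neurofilament gene, and Prph, an intermediate filament gene, rose, by 2.05 and 2.57. The more abundant neurofilament genes Nefl and Nefm were lower in all IDPN-4wk libraries, within 1.5-fold (log2-Fold changes -0.43 and -0.52, edgeR Padj 0.0157 and 0.0158). Of the 7 neuron markers 2 were called lower and 2 higher, and their part in the change of Slc12a5 was not tested.

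The cotransporters that act in most cells differed little and did not pass. Slc12a7 (KCC4) and Slc12a4 (KCC1) were at 116 ± 12.9 and 113 ± 11.3 CPM in Control against 121 ± 5.04 and 120 ± 10.8 CPM in IDPN-4wk libraries (mean ± SD of 3 rats). Their log2-Fold changes were 0.07 and 0.09, with edgeR Padj of 0.625 and 0.526. KCC4 is needed for hearing in mice. Slc12a9, a member without a settled transport role, gave 0.13. The renal carriers Slc12a1 and Slc12a3 had few counts. Slc12a1 had 0 counts in all Control libraries and 6, 2 and 0 counts in IDPN-4wk libraries, and Slc12a3 at most 4 counts.

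**Figure D2:**
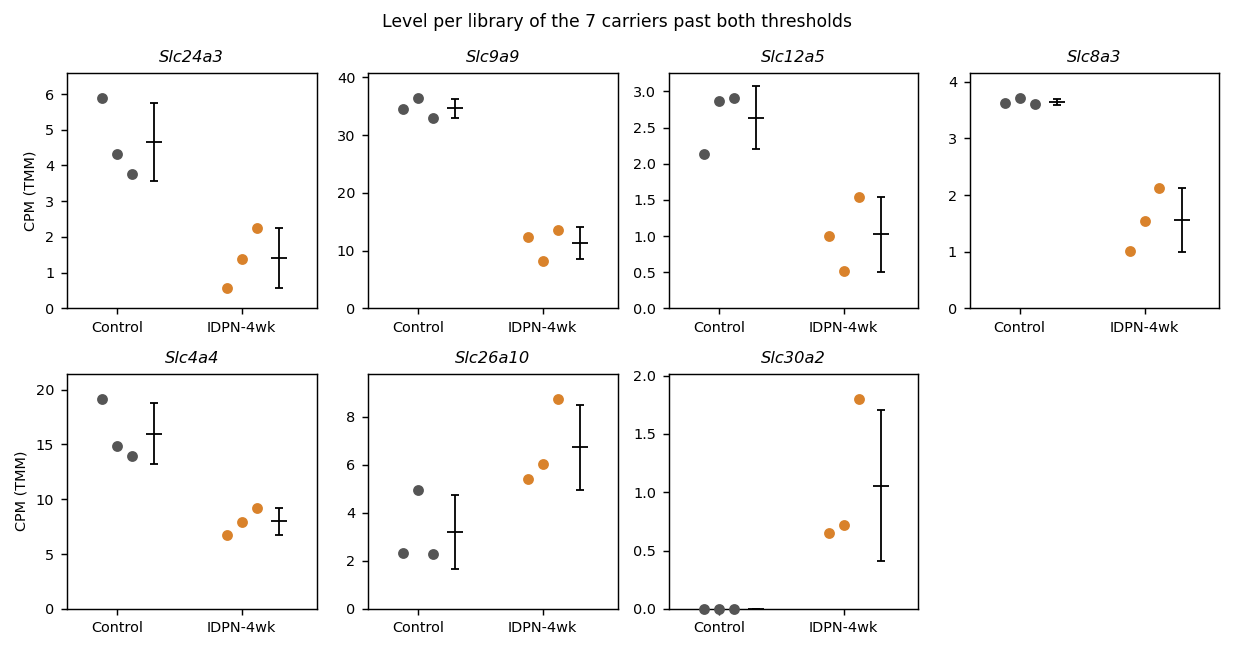
Points are the CPM of each library for the 7 carriers past both thresholds, with Control in grey and IDPN-4wk in orange and with the mean and SD (n = 3) as bars beside them. In all 7 panels the groups do not overlap, and the Control libraries of Slc30a2 lie at 0.

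In the SLC26 family, whose members exchange chloride, bicarbonate, sulfate and other anions, 1 of 7 tested carriers was called. Slc26a10 (ENSRNOG00000029465), a little studied member, had 2.32, 4.96 and 2.26 CPM in Control against 5.39, 6.04 and 8.76 CPM in IDPN-4wk libraries. Control 2 came close to the lowest IDPN-4wk library (log2-Fold change 1.08, SE 0.33, edgeR Padj 0.0444). The call was kept without Control 2 (edgeR Padj 0.0116) and lost without each of the others, with Padj of 0.128 and 0.144 without Control 1 and 3 and 0.0632, 0.0755 and 0.132 without IDPN-4wk 1, 2 and 3. In the GRCr8 annotation Slc26a10 overlaps B4galnt1, a ganglioside synthase gene, and reads without strand information cannot be told apart where the genes overlap. The called carriers Slc4a4, Slc24a3, Slc8a3, Slc9a9 and Slc12a5 overlap lncRNA or pseudogene loci there, and Slc24a5, Slc26a1, Slc26a6, Slc26a11, Slc39a5, Slc39a7, Slc39a8 and Slc39a11, which were not called, overlap protein-coding genes, with the same limit. B4galnt1 itself went from 36.3 to 39.6 CPM (log2-Fold change 0.13, SE 0.09, edgeR Padj 0.370).

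The rest of the SLC26 family did not pass. Slc26a7, a chloride and bicarbonate carrier of acid-secreting epithelia, had 2.71, 1.40 and 3.19 CPM in Control against 3.31, 4.13 and 5.92 CPM in IDPN-4wk libraries (log2-Fold change 0.87, SE 0.35, edgeR Padj 0.106). Slc26a2, the sulfate carrier that cartilage needs, was at 17.0 ± 1.56 and 16.6 ± 3.29 CPM. Slc26a5, the gene of the outer HC motor protein prestin, was not tested, with 12, 5 and 7 counts in Control and 22, 12 and 6 counts in IDPN-4wk libraries. Slc26a3 and Slc26a9 had 0 counts in every library.

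**Figure D3:**
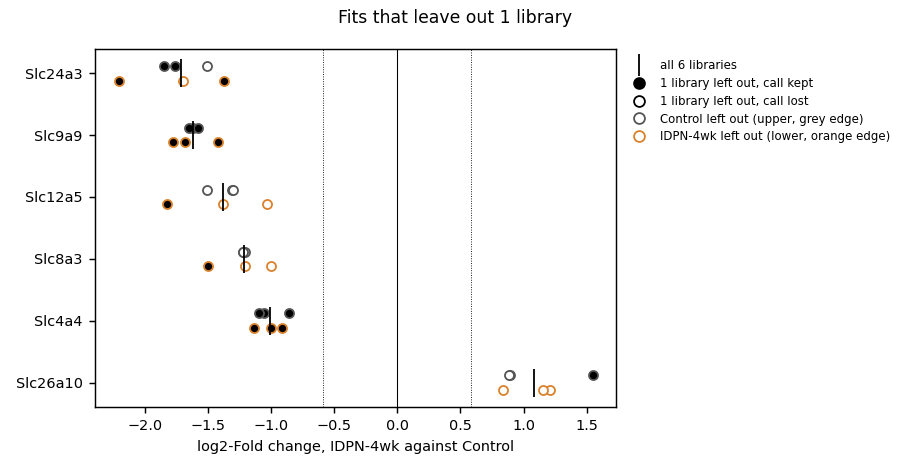
Log2-Fold changes of 6 called carriers in the fits with all 6 libraries (vertical bars) and with 1 library left out (circles, filled where the call was kept and open where it was lost). Slc9a9 and Slc4a4 show 6 filled circles each, Slc24a3 shows 4, and Slc12a5, Slc8a3 and Slc26a10 show 1 each. Slc30a2 is not drawn because its Control libraries held 0 counts. It reached all 6 such fits only through its IDPN-4wk libraries, so its kept call there is not independent support.

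Zinc and metal carriers accounted for 24 of the 68 genes, of which 20 were tested and 1 was called. Slc30a2 (ENSRNOG00000054142) encodes ZnT2, which loads zinc into vesicles and is known for zinc secretion into milk. It had 0 counts in each Control library and 9, 14 and 28 counts in the IDPN-4wk libraries, or 0.65, 0.72 and 1.80 CPM. Every IDPN-4wk library was thus above every Control library. Since a count of 0 is compatible with up to 3 counts in each library, 3 counts were taken as the Control floor, on average 0.205 CPM. The observed IDPN-4wk mean was 5.15-fold that floor, and the gene had an edgeR Padj of 0.00512. No limit was put on the IDPN-4wk mean itself, so this ratio is not a lower bound of the change. IDPN-4wk 3 held 28 of the 51 counts, and without it the ratio was 3.34, against 5.01 to 6.15 without any other library. These ratios were added after the values were seen. With 0 counts in Control, Slc30a2 passed the filter on low counts only through the IDPN-4wk libraries. Its call is therefore a description of these counts and not independent support. Padj was from 0.00974 to 0.0184 with 1 library left out, and with a mean count of at least 50 required the gene was not tested.

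To show what promoter sequence these zinc genes carry, the 250 bases before the gene start of RefSeq (build GRCr8) were searched on both strands for the core of the metal response element, TGCACNC or TGCGCNC, with overlapping matches counted separately. A window was matched by symbol for 53 of the 68 carriers. The windows of Slc30a2, of the MTF1 target Slc30a1, of Slc39a7 as the zinc importer with the most counts, and of the metallothionein gene Mt2A are given 5′ to 3′ on the strand of the gene, with the letters of each core, or of its reverse complement, in capitals.
Slc30a2: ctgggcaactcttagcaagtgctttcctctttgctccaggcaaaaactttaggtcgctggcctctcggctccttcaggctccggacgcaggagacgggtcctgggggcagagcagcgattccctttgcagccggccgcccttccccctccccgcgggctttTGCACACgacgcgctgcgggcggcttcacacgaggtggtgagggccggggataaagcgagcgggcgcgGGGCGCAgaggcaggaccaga
Slc30a1: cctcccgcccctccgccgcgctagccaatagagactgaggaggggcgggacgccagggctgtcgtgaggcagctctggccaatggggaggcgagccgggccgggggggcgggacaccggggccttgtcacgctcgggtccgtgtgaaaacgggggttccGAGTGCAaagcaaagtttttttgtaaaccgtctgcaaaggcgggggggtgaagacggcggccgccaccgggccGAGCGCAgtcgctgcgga
Slc39a7: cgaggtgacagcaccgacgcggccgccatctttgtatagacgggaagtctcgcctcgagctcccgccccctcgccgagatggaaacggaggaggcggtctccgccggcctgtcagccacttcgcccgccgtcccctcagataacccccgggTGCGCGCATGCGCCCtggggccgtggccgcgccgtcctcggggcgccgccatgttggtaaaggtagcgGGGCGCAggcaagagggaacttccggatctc
Mt2A: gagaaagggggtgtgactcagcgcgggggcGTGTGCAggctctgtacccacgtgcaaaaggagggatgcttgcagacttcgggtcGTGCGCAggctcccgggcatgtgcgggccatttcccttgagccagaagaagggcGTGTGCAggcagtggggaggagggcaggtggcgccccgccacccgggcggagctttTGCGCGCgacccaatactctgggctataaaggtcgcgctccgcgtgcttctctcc
The Slc30a2 window is chr5:151843201-151843450 (+ strand), with cores whose first letter lies 89 and 21 bases before the start. The Slc30a1 window is chr13:106021769-106022018 (+ strand), with cores at 91 and 18 bases. The Slc39a7 window is chr20:4824809-4825058 (+ strand), with cores at 99, 98, 91 and 31 bases, of which the first and second overlap. The Mt2A window is chr19:10838709-10838958 (- strand), with cores at 220, 165, 111 and 55 bases.

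A match describes letters in the window and not a working site. At least 1 core stood in 8 of 19 matched zinc and metal carriers (42.1%), in 10 of 34 other carriers (29.4%) and in 21.2% of all 27457 windows. At least 2 cores stood in 7 of the 19 (36.8%), in 4 of the 34 (11.8%) and in 5.13% of all windows. Cores stood in genes that rose and in genes that fell. Slc24a3 has 3 cores and fell, Slc9a9, Slc8a3, Slc12a5 and Slc26a10 have 0 in the same window, Slc4a4 has 1, and Mt3 has 3 and fell.

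The other zinc exporters stayed below the thresholds. Slc30a1, the zinc exporter of the plasma membrane, had 3.75, 3.70 and 4.88 CPM in Control against 4.17, 5.003 and 8.30 CPM in IDPN-4wk libraries. IDPN-4wk 3 stood above the rest, and the groups overlapped (log2-Fold change 0.50, SE 0.29, edgeR Padj 0.255; 0.15 without that library). Slc30a3, which loads zinc into synaptic vesicles, had 10, 4 and 3 counts in Control and 9, 14 and 12 counts in IDPN-4wk libraries (edgeR Padj 0.290). Slc30a9, a mitochondrial zinc carrier, was at 124 ± 5.36 and 110.3 ± 5.19 CPM (mean ± SD of 3 rats) with libraries that did not overlap (log2-Fold change -0.17, edgeR Padj 0.121). Slc30a10, a manganese exporter, and Slc30a4, a vesicular zinc carrier, gave 0.11 and -0.01. Slc30a8, the zinc carrier of insulin granules, had 0 counts in every library.

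No ZIP importer passed both thresholds with edgeR or DESeq2, and 3 of 11 tested had an unadjusted p under 0.05. Slc39a13 (ZIP13), a zinc carrier needed by connective tissue, passed the edgeR Padj alone with a log2-Fold change of -0.30 (Padj 0.0231), and with Slc4a2 it made 9 of 55 carriers (16.4%) past Padj alone, against 19.4% of all genes. Slc39a7 (ZIP7), which releases zinc from the endoplasmic reticulum, was at 252 ± 19.2 and 229 ± 3.57 CPM (log2-Fold change -0.14, SE 0.07, edgeR Padj 0.225). Slc39a8 (ZIP8), which imports zinc, manganese and cadmium, had 27.0, 37.1 and 29.2 CPM in Control against 41.8, 37.7 and 40.6 CPM in IDPN-4wk libraries, and Control 2 nearly reached the treated values (log2-Fold change 0.36, SE 0.12, edgeR Padj 0.0622). Slc39a14 (ZIP14), a manganese and iron importer, gave 0.14 and Slc39a9 gave -0.01. Slc39a11 was lower in all IDPN-4wk libraries and did not pass (log2-Fold change -0.60, SE 0.21, edgeR Padj 0.0729). Slc39a2 was not tested, with 1, 4 and 8 counts in Control and 8, 20 and 22 counts in IDPN-4wk libraries. Slc39a4 (ZIP4), the importer that takes up dietary zinc, was not tested, with 0 counts in each Control library and 4, 1 and 5 counts in the IDPN-4wk libraries. Over all carriers tested and not called, log2-Fold changes ran from -0.81 (Slc24a1) to 1.16 (Slc4a8).

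**Figure D4:**
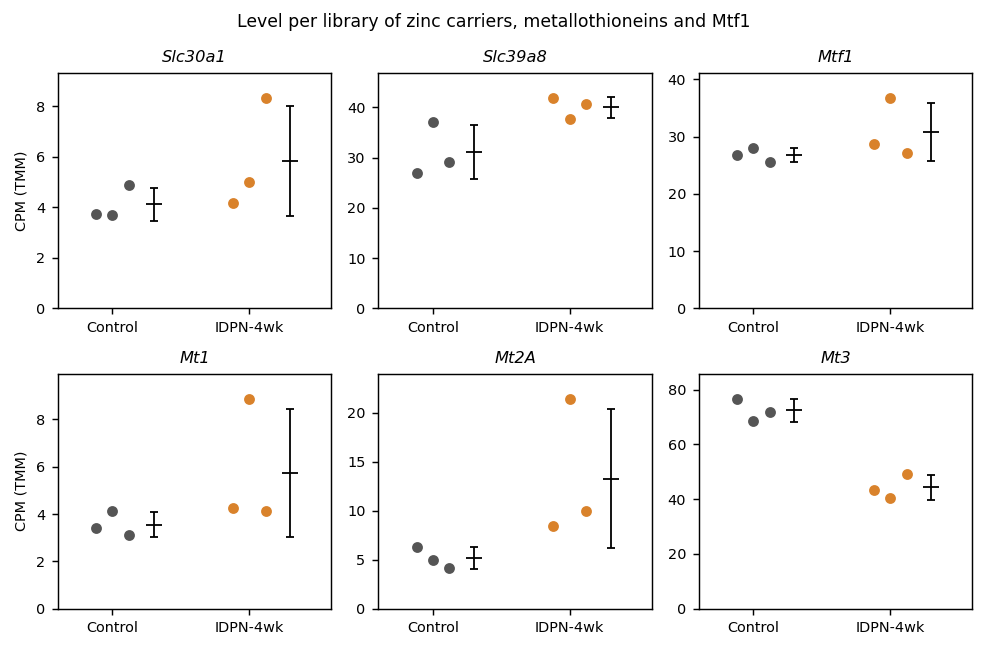
CPM of each library for the zinc carriers Slc30a1 and Slc39a8, the zinc sensor Mtf1 and 3 metallothionein genes, with Control in grey, IDPN-4wk in orange and the mean and SD (n = 3) as bars. Mt2A lies higher and Mt3 lower in all IDPN-4wk libraries, and IDPN-4wk 2 is the highest for Mt1, Mt2A and Mtf1.

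The metallothioneins, which bind zinc and copper in the cytosol, split by member. Mt2A had 6.33, 4.96 and 4.18 CPM in Control against 8.41, 21.4 and 9.98 CPM in IDPN-4wk libraries (log2-Fold change 1.37, SE 0.33, edgeR Padj 0.0158). IDPN-4wk 2 exceeded the sum of the other two, and without it the log2-Fold change was 0.83 (edgeR Padj 0.0499). Without Control 2 or Control 3 the edgeR Padj was 0.0554 and 0.0643, within 0.0112 to 0.0643 over the 6 such fits. Mt1 was also highest in IDPN-4wk 2, at 8.87 CPM, and did not pass (log2-Fold change 0.70, SE 0.32, edgeR Padj 0.156). Mt3, the metallothionein of nervous tissue, fell from 76.6, 68.6 and 71.9 CPM to 43.4, 40.4 and 49.2 CPM (log2-Fold change -0.71, SE 0.09, edgeR Padj 5.21e-04). Mtf1, the zinc sensor, was at 26.8 ± 1.24 and 30.9 ± 5.07 CPM (mean ± SD of 3 rats; edgeR Padj 0.289).

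The Na+/K+-ATPase makes the sodium gradient on which many of these carriers run, and most of its subunit genes fell. Of 6 subunit genes tested 4 were downregulated (against 6.62% of all genes tested), and all 6 had lower levels in every IDPN-4wk library than in any Control library (37.8% of all genes did not overlap, in either direction). Atp1b3 had 552, 570.3 and 512 CPM in Control against 316, 325 and 377 CPM in IDPN-4wk libraries (log2-Fold change -0.68, SE 0.09, edgeR Padj 3.66e-04). Atp1b2, the beta subunit of glia, was lower by a narrow margin past the cutoff of 0.58 on the log2 scale (log2-Fold change -0.60, SE 0.11, edgeR Padj 0.00365). It moved to -0.50 without Control 2, to -0.58 without IDPN-4wk 1 and to -0.54 without IDPN-4wk 3, under that threshold. Its call was also lost with library size alone (-0.49), with upper quartile scaling (-0.56) and with glmTreat (edgeR Padj 0.999999). The summed level of the subunits went from 4998 ± 342 to 3539 ± 256 CPM, while dark cell markers, of cells rich in this pump, fell in 3 of 7 genes.

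Few of the remaining partner genes were called. None of 9 genes tested of the WNK, SPAK and OSR1 kinase pathway, which sets the activity of the chloride cotransporters, passed both thresholds. Its kinase Stk39 (SPAK) and the adaptor Cab39l had log2-Fold changes of -0.34 and -0.39 with edgeR Padj of 0.0234 and 0.0169, and 5 of the 9 had an unadjusted p under 0.05. DESeq2 called 0 of the 9 as well. Of 7 partners of the Na+/H+ exchangers, Tesc, whose product tescalcin acts on Na+/H+ exchange, was downregulated. It had 2.00, 2.10 and 1.77 CPM in Control against 0.43, 0.57 and 0.26 CPM in IDPN-4wk libraries (log2-Fold change -2.18, SE 0.42, edgeR Padj 0.00503), and with 1 library left out the change stayed between -2.49 and -1.95. Of 14 iron, copper and magnesium carriers only Slc41a3, a magnesium carrier, was called (log2-Fold change -2.33, SE 0.50, edgeR Padj 0.00876). Its groups overlapped: Control 1 with 21.3 CPM was far under the others with 132 and 92.4 CPM and near the IDPN-4wk values of 22.4, 13.6 and 13.1 CPM. Without that library its log2-Fold change was -2.79, and with robust dispersion the call was lost (edgeR Padj 0.129, the highest of its alternatives, which began at 6.51e-05). Over the 5 lists, 40 of 47 genes were tested, with 7 lower (17.5%, against 6.62% of all genes) and 1 higher (2.5%, against 3.09%).

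**Figure D5:**
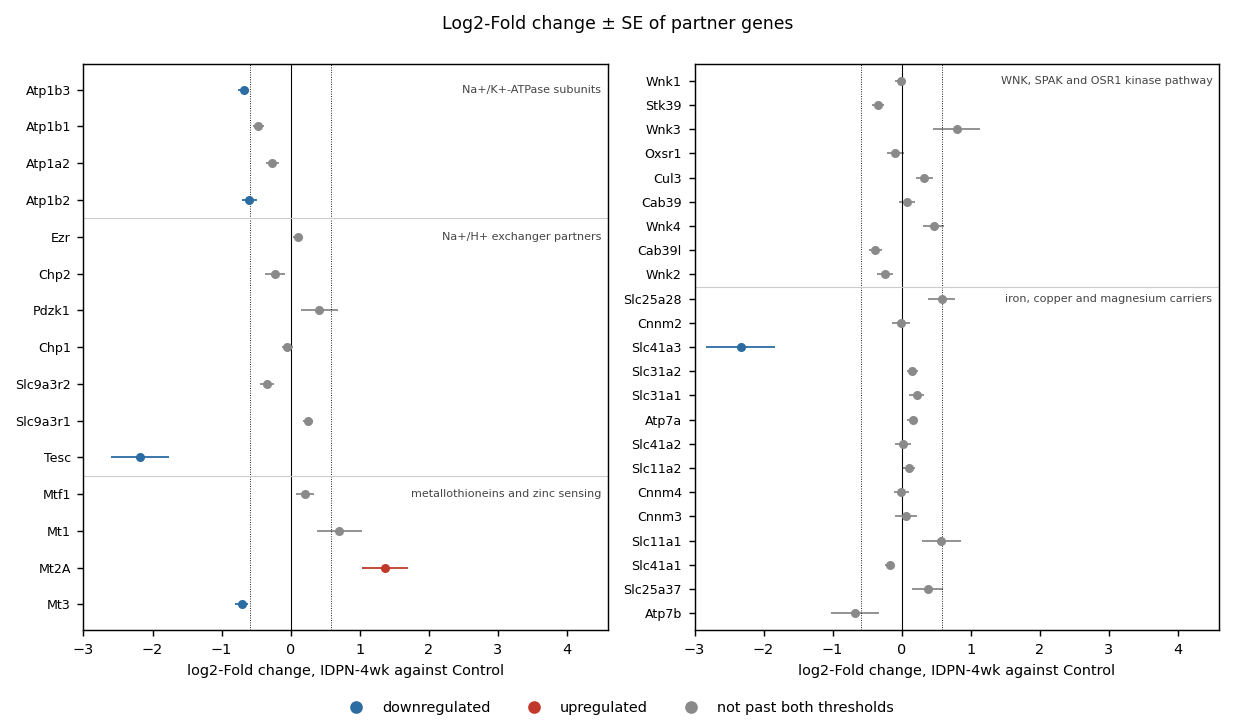
Each point is the log2-Fold change of a partner gene reported here, in IDPN-4wk against Control rats (n = 3 each), with its SE, for 5 lists of genes that work with the carriers. Dotted lines mark a fold change of 1.5. The subunits of the Na+/K+-ATPase that are drawn lie left of 0, Tesc and Slc41a3 lie beyond -2, and the kinases lie between the dotted lines except Wnk3, at 0.80 with SE 0.34.

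The 13 carriers not tested had at most 32 counts in a library, and 5 of them had 0 counts in every library. For counting error only, a count of 0 leaves room for 0.155 to 0.216 CPM.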

How the data were processed

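The deposited values are expected counts per gene. Per the paper and the submitters' processing notes, the authors aligned the reads to Rnor6.0 with STAR 2.5.3a and estimated counts with RSEM, which shares reads between near-identical genes. The processing notes give RSEM 1.3.0, and the paper names another version. The library protocol (SMART-seq2) does not keep the strand. All counts were whole numbers as deposited, and rounding changed 0 of them. After filterByExpr (at least 10 counts, total at least 15) and TMM scaling, all genes were fitted in edgeR 4.0.16 (glmQLFit and glmQLFTest, R 4.3.3), and DESeq2 1.42.0 was an alternative. The study's own fit used DESeq2 with the same thresholds. The SE of a log2-Fold change came from the quasi F statistic. CPM are counts scaled to a common library size after TMM. The fit was tested on simulated data.

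Groups came from the treatment label. Replicates were numbered by accession order and pair nothing. Replicates differed by more than sampling noise (chi-square per degree of freedom from 7.94 to 16.1), and p-values measure the spread between these 3 and 3 rats. The carriers, gene lists and markers were chosen with earlier results of these data known. Named carriers were those past both thresholds or past Padj alone, the one with the highest mean CPM in each role group, and 23 with a role known beforehand. A few of these carriers and partner genes are counted but not reported here. Any other carrier or marker gene was named after its values had been seen. Promoters and gene overlaps came from RefSeq tables of GRCr8, another build than Rnor6.0, matched by symbol. Intervals and floors cover counting error only, since reads had no molecular identifiers.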

Additional observations from a re-analysis of the deposited data

How the results depend on the processing

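No paired analysis was possible because the labels give no replicate numbers. Values below are edgeR fits unless a tool is named, and causes were not tested. All 7 carriers were called with DESeq2 size factors, with the DESeq2 Wald test, with no filter on low counts and with robust dispersion. Library size alone in place of TMM moved the median log2-Fold change of all genes from 0.02 to 0.13 and of the carriers to 0.10, and 50.6% of all calls were then lower, against 68.1%. With it and with upper quartile scaling Slc4a5 was called too (Padj 0.0278 and 0.0478). Its Padj ran from 0.0278 to 0.199 over its alternatives other than glmTreat. With a mean count of at least 50 the filter left 40 carriers, of which 2 were lower and 1 higher. With glmTreat against a fold change of 1.5, 1 was lower (Slc9a9) and 1 higher (Slc30a2). With 1 library left out, from 2 to 5 carriers were lower and from 1 to 2 higher.

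Partner genes were lower in 4 and higher in 2 with library size alone, in 11 and 2 by Padj alone, and in 2 and 0 with glmTreat. With 1 library left out from 5 to 7 were lower and from 0 to 2 higher. Slc41a3 lost its call with robust dispersion (Padj 0.129), and Padj ran from 6.51e-05 to 0.129 over its alternatives.

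The changes of some carriers that were not called turned sign. Slc24a5 was -0.00469 with DESeq2 size factors and -0.00470 with the DESeq2 Wald test. With library size alone Slc9a3 was 0.10, Slc26a2 0.0736, Slc30a4 0.10, Slc9a7 0.10 and Slc39a9 0.10, and with upper quartile scaling Slc9a3 was 0.0247, Slc30a4 0.0187, Slc9a7 0.0242 and Slc39a9 0.0235. With 1 library left out the ranges crossed 0 for Slc24a5 (-0.0876 to 0.0969), Slc9a3 (-0.40 to 0.31), Slc26a2 (-0.19 to 0.0924), Slc30a4 (-0.0814 to 0.12), Slc39a9 (-0.0689 to 0.0300), Slc4a10 (-0.996 to 0.28), Slc4a1 (-0.22 to 0.72), Slc9a7 (-0.19 to 0.20), Slc8a2 (-0.13 to 0.33) and Slc39a14 (-0.0449 to 0.25).

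Summed levels as percent of Control rose with library size alone, to 115% for the Cl-/HCO3- exchangers, 93.3% for the Na+-coupled SLC4 carriers, 85.5% for the organellar Na+/H+ exchangers, 108% for the K+-Cl- cotransporters, 118% for the other SLC12 carriers, 128% for SLC26, 105% for the zinc exporters, 99.1% for the LIV-1 importers and 106% for the other importers. With upper quartile scaling they were 109% for the Cl-/HCO3- exchangers and 99.2% for the zinc exporters. With 1 library left out the Na+-coupled SLC4 carriers ran from 80.8% to 91.6%.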
